A study of Mus musculus with 2 samples.

Results

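Ptn, Mdk, Nrk, Cthrc1, Postn and Gpc3 are 6 of the 31125 genes counted in single cells of mouse subcutaneous adipose tissue. The genes were chosen by measured values of these same libraries. These were their level, detection and co-expression in stromal cells at 2 weeks of age and what remained of them at 8 weeks. Their level in B and T cells was used as well. The age difference, the co-expression and the contrast with B and T cells described here therefore took part in selecting them and were not tested. The cells came from the stromal vascular fraction (SVF), the part of fat tissue that is left when mature adipocytes are removed, of inguinal white fat from male wild type C57BL/6J mice at post natal week 2 (adolescent) and post natal week 8 (adult). Tissue was digested with collagenase, live cells were sorted by exclusion of the dye 7-AAD, and the cells of several mice were pooled into 1 library per age. The spread between animals is therefore unknown, no P value can be given between the ages, and age, library and pool cannot be told apart. All intervals are 95% intervals that cover counting error only.

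Pleiotrophin (Ptn) and midkine (Mdk) form a family of small secreted growth factors that bind heparan sulfate, are abundant in embryonic tissue and signal through the receptor phosphatase Ptprz1, anaplastic lymphoma kinase (Alk), syndecans, integrins and Lrp1. The other members are not growth factors. Cthrc1 is a secreted collagen triple helix repeat protein of remodelling matrix that takes part in planar polarity Wnt signaling, and periostin (Postn) is a matricellular protein that binds fibronectin, collagen and integrins. Glypican 3 (Gpc3) is a cell surface heparan sulfate proteoglycan that restrains growth in the embryo, and Nrk is a germinal center kinase family serine/threonine kinase best known from the placenta.

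Stromal cells were defined as cells in which Col1a1, Col1a2, Col3a1 and Dcn together made up at least 1% of the unique molecular identifiers (UMIs, the count of captured mRNA molecules). This gave 1647 of 3915 adolescent cells and 1418 of 5429 adult cells. The adolescent stromal cells held 16546829 UMIs, with a median of 10244 per cell, and the adult ones 11584115, with a median of 8387. The fibroblast markers Pdgfra, Lum and Mfap5, of which none took part in the definition, had UMIs in 74.6%, 97.8% and 97.5% of adolescent stromal cells and in 75.1%, 93.9% and 95.1% of adult ones. Immune RNA was also present in this gate. At least 3 of 6 mast cell markers were found in 169 adolescent stromal cells (10.3%) and 11 adult ones (0.776%), and at least 3 of 6 macrophage markers in 82 (4.98%) and 96 (6.77%). With all cells that had 2 or more markers of an immune class left out, 659 and 879 stromal cells remained and the age ratios of the 6 genes stayed above 1 (86.0 for Ptn). The libraries shared 22 barcodes, 2 of them stromal in both, and no doublets were removed.

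Few cells lay near the 1% threshold. At 2 weeks, 22 cells just inside it (1 to 2% of UMIs) had 168.8 Ptn, 294 Mdk, 10.9 Nrk, 27.2 Cthrc1, 718.7 Postn and 147 Gpc3 CPM (UMIs of the gene per 1000000 UMIs of the same cells), and 77 cells just outside it (0.5 to 1%) had 0, 124.8, 6.24, 34.3, 131 and 87.3 CPM in the same order. At 8 weeks, the 33 cells just inside had 113.4 CPM of Ptn, 34 of Mdk, 242 of Postn and 60.5 of Gpc3, with no UMI of Nrk or Cthrc1, and the 12 cells just outside had 128.8 CPM of Ptn, 220.8 of Postn, 18.4 of Gpc3 and no UMI of the other 3 genes. The 8-week Ptn level near the threshold was thus far above that of the adult gate as a whole, but it rests on few cells. Of the 30 Ptn UMIs just inside, 19 lay in a cell with epithelial markers and 10 in a cell with Schwann cell markers. All 7 just outside lay in a single cell with Schwann cell markers. Other values rest on few UMIs too, such as 2 for adolescent Nrk just inside and 1 for adult Gpc3 just outside.

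The genes lie on 5 chromosomes (GRCm38). Ptn is at chr6:36714929-36810220 on the minus strand, Mdk at chr2:91929805-91932297 on the minus strand, Nrk at chrX:138914430-139010532 on the plus strand, Cthrc1 at chr15:39076932-39087121 on the plus strand, Postn at chr3:54361109-54391037 on the plus strand and Gpc3 at chrX:52272426-52613950 on the minus strand. All are protein coding. Gpc3 is overlapped on the opposite strand by Gm14582 and A630012P03Rik, which had 2 and 0 UMIs in all adolescent cells and 0 and 1 in all adult cells.

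The sequences upstream of the RefSeq start were at hand for 4 of the genes and are shown. These 4 were all several-fold higher at 2 weeks, as was Cthrc1, for which no sequence was at hand. The start regions of Nrk and Gpc3 were alike in G and C content and unlike those of Ptn and Postn. Each run reads 5′ to 3′ on the gene's own strand and ends at the start site or, for Ptn, at the start annotated farther upstream. Capitals mark the TATA box TATAAA, the CCAAT box, the GC box GGGCGG or the motif CATTCC, the core bound by TEAD factors, on either strand, and no motifs overlapped. They cover chr6:36810221-36810429 for Ptn, chrX:138914180-138914429 for Nrk, chr3:54360857-54361106 for Postn and chrX:52613975-52614224 for Gpc3 (RefSeq, GRCm38.p6).
Ptn: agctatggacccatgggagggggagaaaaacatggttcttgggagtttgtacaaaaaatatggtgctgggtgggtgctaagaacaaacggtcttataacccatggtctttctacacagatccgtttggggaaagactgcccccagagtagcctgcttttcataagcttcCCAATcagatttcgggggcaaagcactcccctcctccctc
Nrk: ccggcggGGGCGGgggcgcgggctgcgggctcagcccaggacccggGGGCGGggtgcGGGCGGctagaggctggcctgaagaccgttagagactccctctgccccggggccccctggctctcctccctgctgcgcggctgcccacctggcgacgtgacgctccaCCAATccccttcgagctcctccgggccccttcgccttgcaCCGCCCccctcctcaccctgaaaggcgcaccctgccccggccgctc
Postn: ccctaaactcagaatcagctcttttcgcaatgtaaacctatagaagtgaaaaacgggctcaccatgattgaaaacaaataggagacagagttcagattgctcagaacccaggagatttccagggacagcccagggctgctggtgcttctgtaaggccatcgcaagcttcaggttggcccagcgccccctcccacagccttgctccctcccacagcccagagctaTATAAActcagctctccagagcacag
Gpc3: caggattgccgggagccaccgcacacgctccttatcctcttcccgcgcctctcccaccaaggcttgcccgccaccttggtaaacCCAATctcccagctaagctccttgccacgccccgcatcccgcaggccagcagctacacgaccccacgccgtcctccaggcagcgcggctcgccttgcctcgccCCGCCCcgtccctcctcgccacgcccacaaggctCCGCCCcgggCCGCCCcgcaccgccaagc
The Nrk and Gpc3 windows were rich in G and C (76.4% and 71.6%) and held 24 and 25 CpG dinucleotides in 250 bases, against a median of 52.4% and 6 over the 32536 promoter windows of that length in the RefSeq table. Nrk had 4 GC boxes and Gpc3 had 3, a motif present in 33.0% of these windows. Postn had a TATA box, present in 12.3% of windows, and neither a GC box nor CCAAT. Ptn, Nrk and Gpc3 each had 1 CCAAT, present in 33.8% of windows. CATTCC, present in 12.6%, was in none of the 4. The letters describe these windows only.

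Postn had the highest level of the 6 genes in adolescent stromal cells. UMIs count a captured molecule once whatever the length of the gene, so levels are set side by side as CPM. The share of molecules captured can differ between genes, and the intervals do not cover this. The order at 2 weeks was Postn at 2469 CPM (40846 UMIs, interval 2445 to 2493), Gpc3 at 767.2 (753.9 to 780.6), Cthrc1 at 407.5 (397.8 to 417.4), Ptn at 245.5 (238.1 to 253.2), Mdk at 118.3 (113.1 to 123.7) and Nrk at 76.3 (72.2 to 80.7). No neighbouring intervals in this order overlapped. At 8 weeks the order was Postn, Gpc3, Mdk, Cthrc1, Ptn and Nrk, again with no overlap, so Mdk stood above Cthrc1 and Ptn in adult cells. The place of Ptn above Nrk rests on 4 adult cells described below. Without them, a choice made by Ptn count that could only lower the level, Ptn had 0.867 CPM (0.416 to 1.59). This overlapped Nrk at 0.604 CPM (0.243 to 1.245).

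**Figure D1:**
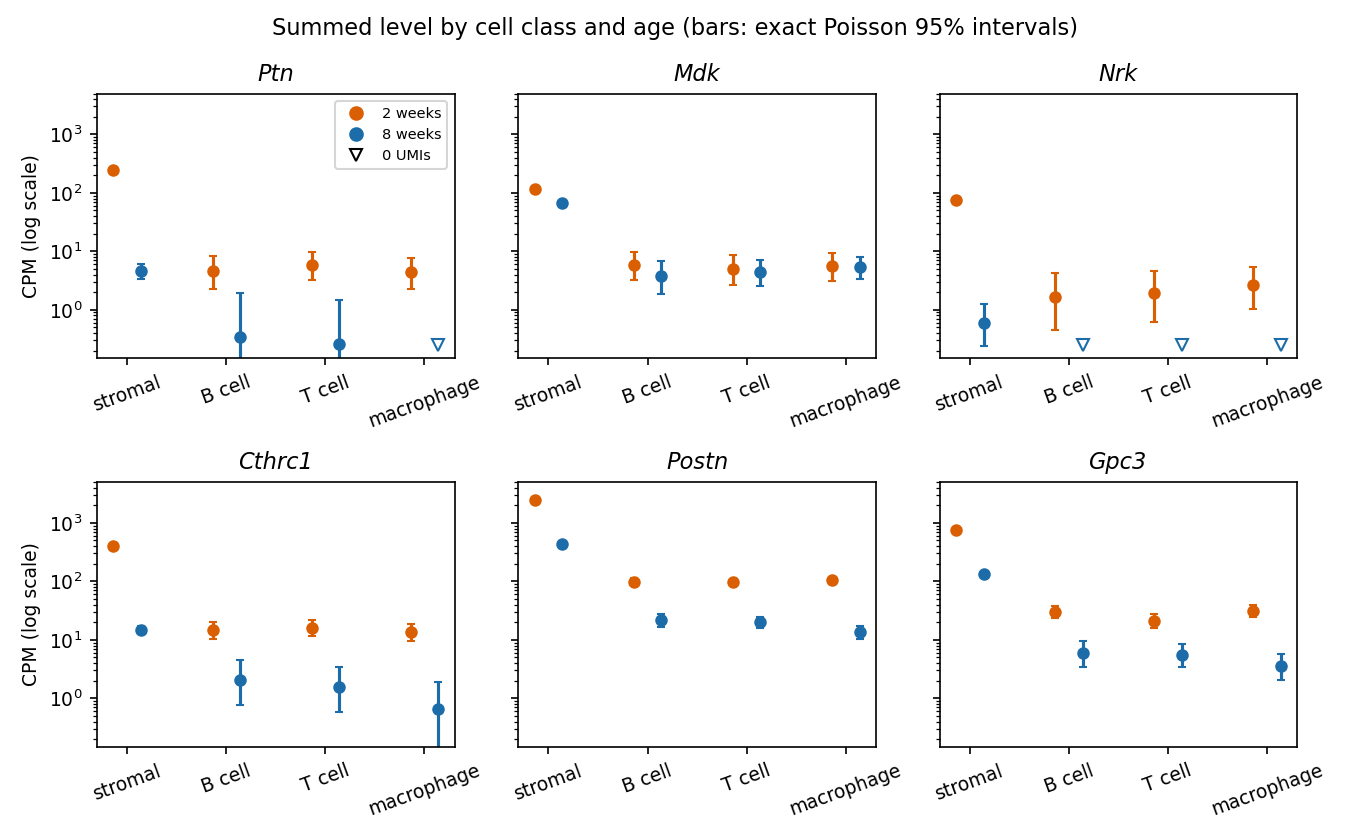
Summed level of each gene in CPM (log scale) in stromal cells, B cells, T cells and macrophages at 2 weeks (orange) and 8 weeks (blue), with exact Poisson 95% intervals. Triangles mark classes with 0 UMIs and are placed at the foot of the axis. Nrk stands at 76.3 CPM in adolescent and 0.604 CPM in adult stromal cells, while Mdk differed by 1.75-fold.

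The growth factors Ptn and Mdk behaved differently with age. Ptn had 4063 UMIs (245.5 CPM) in adolescent and 53 UMIs (4.58 CPM) in adult stromal cells, a ratio of 53.7 (interval 40.9 to 71.8). The adult value rests on few cells, 4 of which held 81.1% of the UMIs, and the ratio was 121 with a 2% threshold of the stromal gate, 164 in cells with a Pdgfra UMI and 283 without those 4 cells. Those 4 cells were picked by their Ptn count, so a higher ratio without them was bound to follow. Mdk had 1958 UMIs (118.3 CPM) and 784 UMIs (67.7 CPM), a ratio of 1.75 (1.61 to 1.90). Mdk was thus a gene of both ages, and the description of the set as confined to adolescent stroma did not hold for it.

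The kinase gene Nrk had 1263 UMIs (76.3 CPM) at 2 weeks and 7 UMIs (0.604 CPM) at 8 weeks, a ratio of 126 (61.1 to 315). The intervals of Nrk and Ptn overlapped, which alone does not settle their order. The Ptn ratio also moved with a few adult cells, so these genes are not ordered by their gap here. The secreted matrix protein gene Cthrc1 had 6743 UMIs (407.5 CPM) and 174 UMIs (15.02 CPM), a ratio of 27.1 (23.3 to 31.7). Postn had 2469 CPM at 2 weeks and 5123 UMIs (442.2 CPM) at 8 weeks, a ratio of 5.58 (5.42 to 5.75). The glypican gene Gpc3 had 12694 UMIs (767.2 CPM) and 1545 UMIs (133.4 CPM), a ratio of 5.75 (5.46 to 6.07). Postn and Gpc3 were thus lower but far from absent in adult cells, at 17.9% and 17.4% of their adolescent levels.

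Among the 5572 genes with at least 20 CPM in the stromal cells of either age, Nrk ranked 3rd, Ptn 5th, Cthrc1 7th, Gpc3 28th, Postn 34th and Mdk 257th by the ratio of adolescent to adult level. The Ptn ratio moved with the 4 adult cells that held 81.1% of its adult stromal UMIs, so the order of Ptn and Nrk is not read from these ranks. Of the 6 genes, 5 were past 4-fold higher at 2 weeks, as were 46 of the 5572 genes (0.826%), while 84 (1.51%) were past 4-fold lower. These ratios chose the genes, so nothing is read from this count. The collagen genes of the gate were also higher at 2 weeks, Col1a1 by 3.43-fold, Col1a2 by 2.33-fold and Col3a1 by 2.03-fold and Dcn was lower, with 8713 CPM at 2 weeks and 11906 CPM at 8 weeks. Leaving the 4 gate genes out of the total put the ratio of Postn at 5.88.

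Detection was compared with each cell thinned at random to 1000 UMIs, since adolescent cells were deeper. Ptn was found in 314 of 1647 adolescent cells (19.1%, exact binomial interval 17.2 to 21.05) and 5 of 1418 adult cells (0.353%). Nrk was found in 111 adolescent cells (6.74%, 5.58 to 8.06) and in 0 of 1418 adult cells, which allows a share of cells with a UMI at this depth of up to 0.212% (exact upper limit 0.260%). Without thinning, 7 adult cells (0.494%) had 1 Nrk UMI each. Cthrc1 was found in 414 adolescent cells (25.1%, 23.1 to 27.3) and 13 adult cells (0.917%). At this depth each of these 3 genes was thus found in 0.917% of adult cells or fewer. The other genes were found in 5.36% or more. Postn was found in 83.2% of adolescent and 30.0% of adult cells, Gpc3 in 52.2% and 13.3% and Mdk in 10.0% and 5.36%. Without thinning, the adolescent shares were 57.3% for Ptn, 43.0% for Nrk, 65.0% for Cthrc1, 98.1% for Postn, 95.3% for Gpc3 and 45.7% for Mdk. The unthinned adult shares were 0.846%, 0.494%, 7.33%, 65.7%, 47.7% and 28.8% in the same order.

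**Figure D2:**
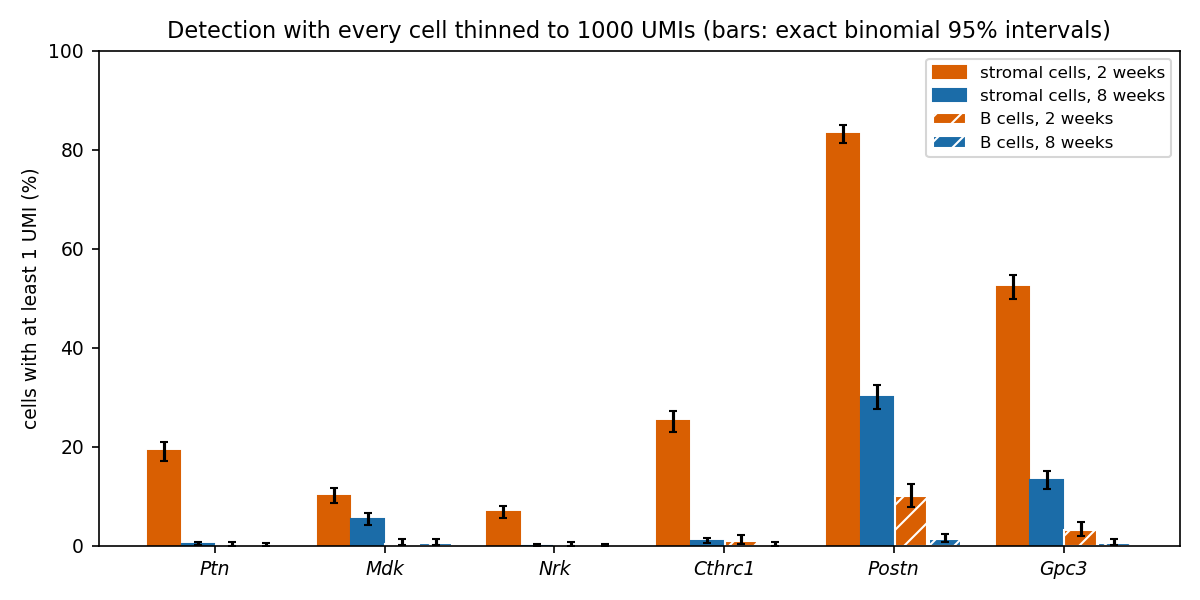
Share of cells with at least 1 UMI of each gene after thinning every cell to 1000 UMIs, in stromal cells (solid) and B cells (hatched) at 2 weeks (orange) and 8 weeks (blue), with exact binomial 95% intervals. The Postn bars stand at 83.2% and 30.0% in stromal cells, and the hatched 2-week bar at 10.0%.

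Lymphocytes are no known main source of these matrix and growth factor mRNAs, and UMIs in cells classed as B or T cells by at least 3 of 6 markers were taken as the level of free RNA. At 2 weeks, 688 B cells (median 2978 UMIs) and 473 T cells (median 4514) were available, and at 8 weeks 1037 (2535) and 904 (3677). At 1000 UMIs per cell, Postn was detected in 10.0% of adolescent B cells and 8.46% of adolescent T cells, Gpc3 in 3.20% and 2.54%, Cthrc1 in 1.02% and 0.846%, Mdk in 0.436% and 0.423%, Ptn in 0.145% and 0.634% and Nrk in 0.145% of B cells and in 0 of 473 T cells, which allows a share with a UMI at this depth of up to 0.634% (exact upper limit 0.777%). Without thinning, 5 of these T cells (1.06%) had a Nrk UMI. All of the thinned shares were below the thinned shares of adolescent stromal cells.

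Over B and T cells together, the adolescent level was 2.14% of the stromal level for Ptn, 2.38% for Nrk, 3.32% for Gpc3, 3.77% for Cthrc1, 3.98% for Postn and 4.61% for Mdk (interval 3.03 to 6.73). The 4 gate genes lay between 2.19% and 3.37%, and their sum at 2.78%. The 6 genes thus lay around the gate genes. By value Ptn lay below their range, Nrk and Gpc3 within it and Cthrc1, Postn and Mdk above it. The intervals of Ptn (1.40 to 3.14), Cthrc1 (2.97 to 4.72) and Mdk reached into that range, and that of Postn (3.63 to 4.35) did not. At 8 weeks the sum of the gate genes in B and T cells stood at 2.22% of its stromal level, Gpc3 at 4.25%, Postn at 4.68%, Mdk at 6.17% and Cthrc1 at 11.9% (6.03 to 21.3).

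The adult stromal level was above that of adult B and T cells by 23.6-fold for Gpc3 (17.1 to 33.4), 21.4-fold for Postn (18.0 to 25.5), 16.2-fold for Mdk (11.1 to 24.6), 8.40-fold for Cthrc1 (4.69 to 16.6) and 15.4-fold for Ptn (4.05 to 130). The adult levels of Gpc3, Postn, Mdk and Cthrc1 were thus above the lymphocyte level. The level in B and T cells was among the values that chose the genes, so this is a description only. The Ptn value rests on 4 cells, described next, without which its stromal level of 0.867 CPM (0.416 to 1.59) had an interval that overlapped that of B and T cells (0.298 CPM, 0.0361 to 1.077). These cells were picked by their Ptn count, so a lower level was bound to follow and nothing is concluded from this overlap. Nrk had 7 UMIs in adult stromal cells (0.604 CPM, 0.243 to 1.245) and 0 in 1941 adult B and T cells, which allows up to 0.550 CPM, so the Nrk intervals overlapped as well. Over all 4011 adult cells outside the gate, with 17933315 UMIs, Nrk also had 0 UMIs, and the interval of the ratio of stromal to other cells began at 2.23.

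What remained of Ptn at 8 weeks was not spread over the adult stroma. The 53 adult stromal UMIs lay in 12 cells, and 4 cells with at least 5 UMIs held 43 of them (81.1%). The cell with 19 Ptn UMIs had 26868 UMIs in all, only just passed the stromal threshold at 1.01% and had UMIs of 3 of 6 epithelial markers. The cells with 10 and 6 Ptn UMIs had 3 and 5 of 6 Schwann cell markers. These 3 cells had no UMI of Pdgfra. The fourth, with 8 Ptn UMIs, had 2, and it had 1 Schwann cell marker and no epithelial marker. Without the 4 cells, 10 UMIs in 8 cells were left (0.867 CPM, 0.416 to 1.59) and the ratio of adolescent to adult level became 283 (154 to 591), a value computed after the cells had been seen. The cells were picked by their Ptn count, so a lower adult level and a higher ratio were bound to follow. With cells of at least 3 Schwann or epithelial markers left out instead, 18 Ptn UMIs in 9 adult stromal cells were left. These classes were those seen in the cells richest in Ptn, so a lower sum was bound to follow here too. Of the 18 UMIs, 8 lay in the fourth cell.

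Over all 5429 adult cells, those of the gate included, 7 had at least 3 Schwann cell markers and held 23 Ptn UMIs in 3 cells (938 CPM), and 5 others had at least 3 epithelial markers and held 82 Ptn UMIs in 4 cells (834.6 CPM). Of these UMIs, 7 in 1 Schwann marker cell and 63 in 3 epithelial marker cells lay outside the stromal gate, where the 4002 cells with neither held 8. The other 5417 adult cells held 26 Ptn UMIs in 16 cells, a level of 0.885 CPM (0.578 to 1.30). Adult Ptn mRNA thus lay mostly in a few cells that carried markers of other cell types, at levels above the mean of adolescent stroma. Adolescent stromal cells rich in Ptn mostly lacked Schwann cell and epithelial markers at this count. Of these cells, 281 had at least 5 Ptn UMIs, 81.1% of them had a UMI of Pdgfra, 4 had at least 3 Schwann cell markers and 0 had at least 3 epithelial markers. In all, 6 adolescent stromal cells had at least 3 Schwann cell markers. Outside the gate, 2 adolescent Schwann cells held 6 Ptn UMIs (1039 CPM) and 2 epithelial cells held 5 (180 CPM). Cells with Schwann cell markers thus held Ptn at both ages.

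**Figure D3:**
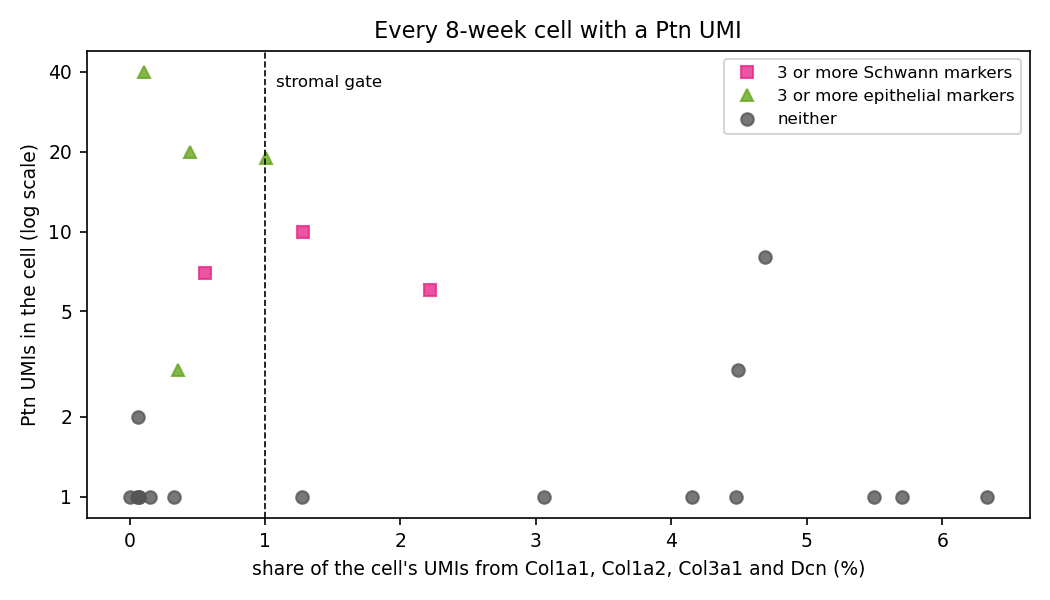
Ptn UMIs (log scale) against the share of UMIs from the 4 stromal gate genes in every 8-week cell with a Ptn UMI, 23 cells in all. Squares have at least 3 Schwann cell markers, triangles at least 3 epithelial markers and circles neither. The cells with 10 or more Ptn UMIs are triangles or a square and sit at or left of 1.28%.

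Adult Nrk was 1 UMI in each of 7 stromal cells and no UMI in other adult cells. Adult Cthrc1 was wider, with 174 UMIs in 104 stromal cells, of which 6 cells with at least 5 UMIs held 21.8%. None of the adult stromal UMIs of Ptn, Nrk or Cthrc1 lay in barcodes that both libraries shared. Adult Mdk was found in 408 stromal cells, Gpc3 in 677 and Postn in 932. These genes therefore had an adult level that no small group of cells carried, although the 10% of adult cells richest in each held 60.1% of Mdk, 50.9% of Gpc3 and 44.7% of Postn UMIs.

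Within adolescent stroma the 6 genes differed in how evenly they were spread. The richest 10% of cells held 53.3% of Mdk, 52.0% of Ptn, 46.4% of Nrk, 43.1% of Cthrc1, 25.4% of Gpc3 and 23.3% of Postn UMIs. The median cell had 2334 CPM of Postn (quartiles 1577 and 3216) and 724.2 CPM of Gpc3 (410.3 and 1091). Postn and Gpc3 were thus broad genes of the adolescent stroma. The median cell had 197 CPM of Cthrc1, 86.6 CPM of Ptn and no UMI of Mdk or Nrk. The highest count in a cell was 128 for Postn, 98 for Cthrc1, 49 for Ptn, 36 for Gpc3, 17 for Mdk and 11 for Nrk. At a low level the richest cells hold more than their share through counting alone, so Nrk and Mdk cannot be set beside Postn in this measure.

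Adipose stroma holds interstitial progenitors (Dpp4, Pi16 and related genes), which lie upstream of committed preadipocytes (Fabp4, Cd36 and related genes) in the path to adipocytes. The stromal cells of each age were put into 3 equal groups by the share of their UMIs from 10 interstitial progenitor markers, none of them a member of the set. Among adolescent cells the median share was 0.0276% in the lowest, 0.346% in the middle and 0.689% in the highest group, and the median depth 9416, 10490 and 11279 UMIs.

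Along this order the set divided. Cthrc1 went from 90.9 CPM in the lowest through 355.8 to 729.4 CPM in the highest group, 8.02-fold (7.28 to 8.85), and Nrk from 32.9 through 94.1 to 96.6 CPM, 2.94-fold (2.47 to 3.51). Ptn went the other way, from 423.9 through 222.2 to 114.5 CPM, a ratio of 0.270 (0.247 to 0.295). Mdk had 268 CPM in the lowest, 41.0 in the middle and 63.7 in the highest group, a ratio of 0.238 (0.211 to 0.267). The growth factor genes were thus highest where progenitor markers were scarce, and Cthrc1 and Nrk where they were rich. Postn (2002, 2742 and 2608 CPM) and Gpc3 (565.1, 851.4 and 860.1 CPM) differed less, by 1.30-fold and 1.52-fold.

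Grouping the same cells by 10 committed preadipocyte markers gave the mirror image. From the lowest to the highest group, Mdk went from 43.0 to 260.2 CPM, 6.04-fold (5.28 to 6.95), and Ptn from 144.2 to 423.2 CPM, 2.93-fold (2.71 to 3.18). Cthrc1 went from 612.7 to 84.9 CPM, a ratio of 0.139 (0.125 to 0.153), and Nrk from 91.1 to 32.6 CPM, a ratio of 0.358 (0.298 to 0.427). The 2 groupings use the same cells and are not independent of each other.

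**Figure D4:**
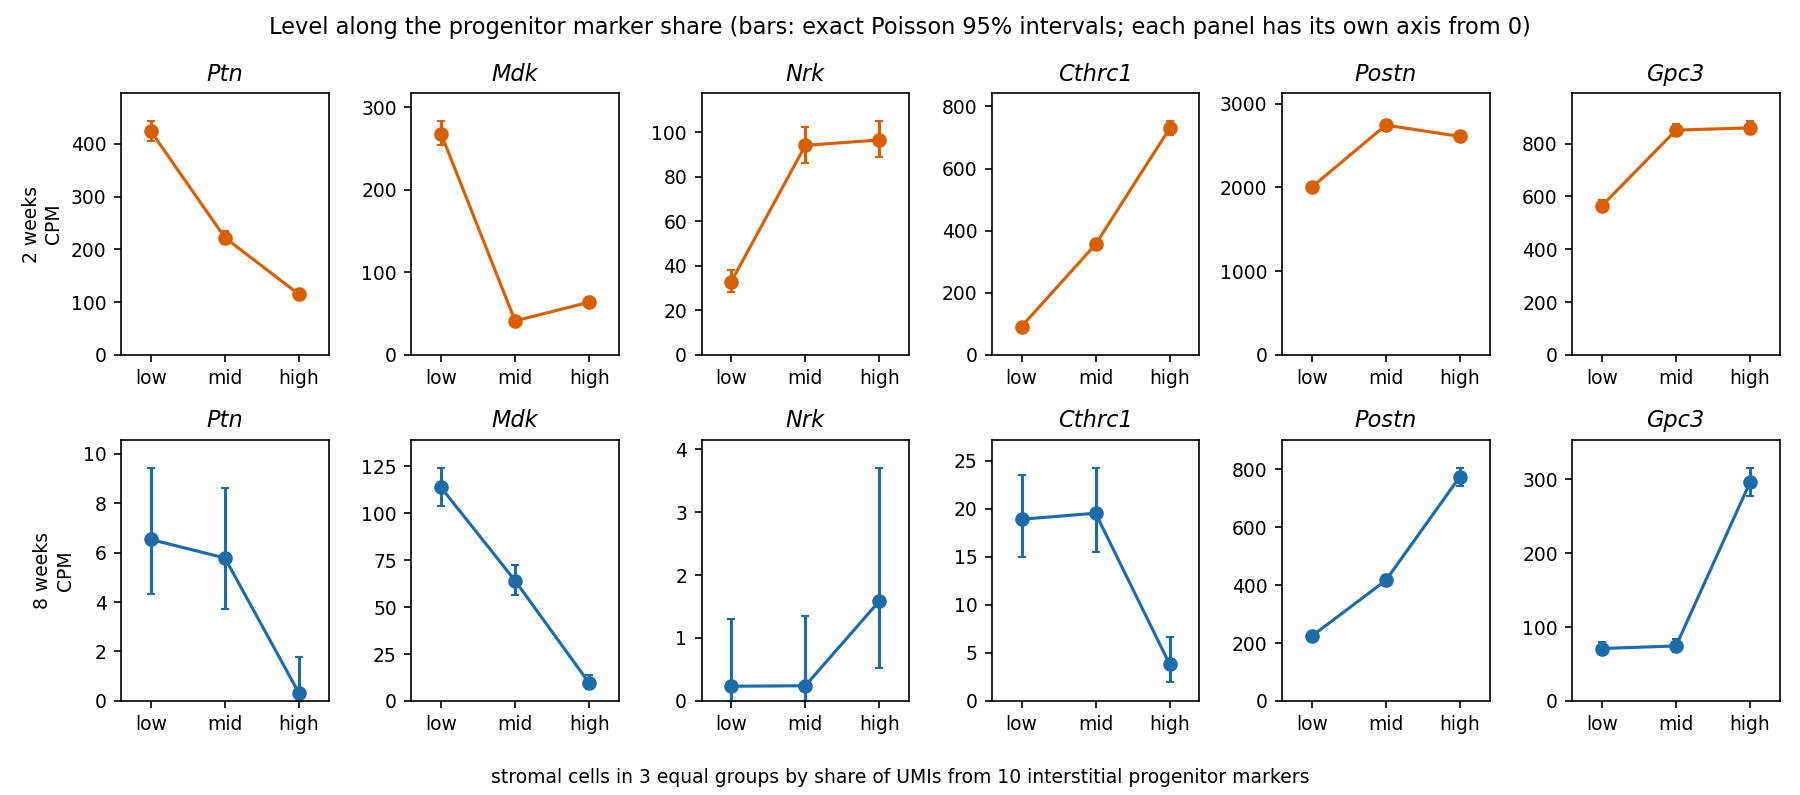
Level of each gene in CPM in stromal cells of the lowest, middle and highest progenitor marker share, at 2 weeks (top, orange) and 8 weeks (bottom, blue), with exact Poisson 95% intervals; lines only join the groups and every panel has its own axis from 0. At 2 weeks Cthrc1 goes from 90.9 to 729.4 and Ptn from 423.9 to 114.5, and at 8 weeks Cthrc1 is lowest, at 3.81, in the highest group.

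In adult stromal cells, Mdk kept its side, with 113.8, 64.1 and 9.53 CPM from the lowest to the highest progenitor group, a ratio of 0.0838 (0.0559 to 0.121). Postn (223.7, 416.2 and 774.4 CPM) and Gpc3 (70.9, 74.5 and 296.2 CPM) were 3.46-fold (3.21 to 3.73) and 4.18-fold (3.67 to 4.77) higher in the highest than in the lowest group. Cthrc1 did not keep its side. It had 18.9 CPM in the lowest, 19.5 in the middle and 3.81 in the highest group, a ratio of 0.202 (0.1002 to 0.372), against 8.02 at 2 weeks. The median marker share of these adult groups was 0.00985%, 0.0402% and 0.802%, so equal ranks stood for unlike shares at the 2 ages. The highest adult group was the shallowest, with a median of 6372.5 UMIs against 9265 in the lowest, and its 12 Cthrc1 UMIs lay not far above the 1.79 CPM of adult B and T cells. Nrk, with 5 of its 7 adult UMIs in the highest group, was too sparse to order.

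How far the genes met in the same cells was described by co-detection at 1000 UMIs per cell, as the number of cells with both genes over the number that independence gives. Ptn and Cthrc1 met in 54 of 1647 adolescent cells against 78.9 expected, 0.684 (Poisson interval 0.514 to 0.893). Mdk and Cthrc1 met in 28 against 41.5, 0.675 (0.449 to 0.976), and Mdk and Gpc3 in 63 against 86.2, 0.731 (0.562 to 0.936). The counts of these pairs lay below those that independence gives at this depth. Co-expression in these cells was among the values that chose the genes, so all pair values are a description only. Nrk and Gpc3 met in 75 cells against 58.0, 1.29 (1.02 to 1.62). The other 11 of the 15 pairs, Ptn with Mdk among them (33 cells against 31.5), had intervals that held 1. The Poisson interval is too wide for genes found in many cells, so holding 1 does not show independence. Cthrc1 was in 28.5% of cells with Gpc3 and in 21.5% of cells without it. Mdk was in 9.04% of cells with Postn and in 14.9% of cells without it. At 3000 UMIs per cell, Ptn with Cthrc1 stood at 0.822, Mdk with Cthrc1 at 0.752 and Nrk with Cthrc1 at 1.28 (1.11 to 1.48). Mdk with Gpc3 (0.898, 0.798 to 1.01) and Nrk with Gpc3 (1.09, 0.965 to 1.22) then had intervals that held 1.

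**Figure D5:**
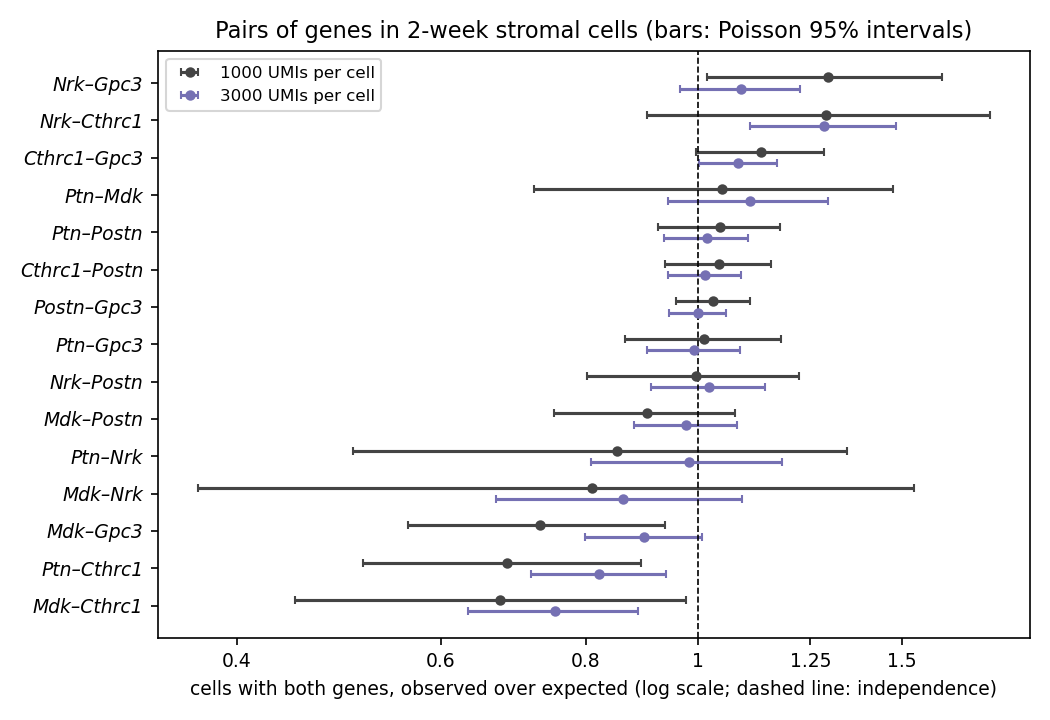
Cells with both genes of a pair over the number expected from independence (log scale) in 2-week stromal cells at 1000 (grey) and 3000 (violet) UMIs per cell, with Poisson 95% intervals; the dashed line is independence. The pairs Ptn–Cthrc1 (0.684) and Mdk–Cthrc1 (0.675) sit left of the line and Nrk–Gpc3 (1.29) right of it at 1000 UMIs.

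No cells stood out as carrying the whole set. At 3000 UMIs per cell, 15 of 1562 adolescent cells had all 6 genes (0.960%), where independence gives 0.693%, and 649 (41.5%) had 3. Correlations of log counts thinned to that depth across these 1562 cells of 1 library lay between -0.16 (Mdk with Gpc3) and 0.16 (Cthrc1 with Gpc3). Without thinning and scaled by depth, these pairs stood at -0.30 and 0.30. The values are given as a description only.

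The genes most like each member across the 1562 adolescent cells, out of 2399 genes with at least 50 CPM, followed the same division. For Cthrc1 they were Pi16 (r = 0.53), Mfap5 (0.47), Igfbp6 (0.47), Akr1c18 (0.46) and Anxa3 (0.41), and the lowest were Igfbp7 (-0.48), Gsn (-0.43) and Lpl (-0.38). For Mdk they were Apoe (0.36), Igfbp7 (0.35), Col15a1 (0.35), Lpl (0.33) and Fabp4 (0.33), and the lowest were Fn1 (-0.36), Igfbp6 (-0.33) and Mfap5 (-0.32). Apoe and Lpl act in lipid transport and uptake, and Fabp4 is a fatty acid binding protein of the adipocyte lineage. Pi16 and Anxa3 belong to the progenitor list, and Col15a1, Lpl and Fabp4 to the committed list. The division among these genes thus partly restates the grouping of the same cells and adds no independent evidence.

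Likeness was weaker for Ptn and Nrk, while the values for Postn and Gpc3 were near those for Mdk. For Ptn the highest were Itm2a (0.22), Igfbp7 (0.22), Col4a1 (0.21), Penk (0.20) and Dlk1 (0.20), the last an imprinted preadipocyte factor, and the lowest was Pi16 (-0.27). For Nrk the highest was Pi16 (0.20), for Postn Fstl1 (0.36) and fibronectin Fn1 (0.35), and for Gpc3 Fn1 (0.34) and Igfbp6 (0.32). The lowest for Gpc3 were Apoe (-0.37), Fabp4 (-0.32) and Col4a1 (-0.29), and for Postn Mgp (-0.33). These values rise with the abundance of a gene and carry no P value.

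The known receptors of Ptn and Mdk were sparse in stromal cells or stayed within 4-fold between the ages. Ptprz1 had 9 UMIs in adolescent and 2 in adult stromal cells and Alk 4 and 1, and neither had a UMI in B cells, T cells or macrophages. Of the 20 receptors and partners, 11 had at least 20 CPM in stromal cells of either age. Of these 11, 0 were past 4-fold in either direction. Over all 5572 genes 0.826% were past 4-fold higher and 1.51% past 4-fold lower, so nothing is read from this count. The median log2 ratio of adolescent to adult level of the 11 was 0.07, against -0.06 over all 5572 genes. Lrp1 (321.4 CPM at 2 weeks and 370.2 at 8 weeks), Sdc2 (164.5 and 202.3) and Itgb1 (168.5 and 160.8) were the highest of them with nucleolin Ncl (192.3 and 169.7). The ratios furthest from 1 were those of Ptprs, a receptor phosphatase (39.4 and 19.2 CPM, 2.06-fold, 1.76 to 2.41), and of Itgb3 (29.6 and 14.3 CPM, 2.07-fold, 1.73 to 2.48).

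Other receptors were found in other cells. Sdc4 had 191.6 CPM in adolescent and 177.7 CPM in adult B cells, against 52.1 and 66.2 CPM in stromal cells. Sdc3 had 120.2 and 192.3 CPM in macrophages against 2.96 and 6.13 CPM in stromal cells. The phosphatase gene Ptprb had 417.2 and 641 CPM in endothelial cells, which numbered only 14 and 39.

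Some of the lists counted next include members, which were chosen for their age difference. All lists were chosen with earlier results of these data known, so their counts are a description only. Over all 5572 genes 0.826% were past 4-fold higher and 1.51% past 4-fold lower. Of 7 glypican and heparan sulfate genes with enough counts, the 1 past 4-fold higher was the member Gpc3. The sulfatase gene Sulf1, which trims heparan sulfate, came next with 100.9 and 31.6 CPM (3.19-fold, 2.85 to 3.59), and Gpc6 had 54.6 and 35.9 CPM. Of 3 germinal center kinase genes, the 1 past 4-fold was the member Nrk, and Map4k4 had 57.2 and 73.1 CPM. Wnt5a and Wnt11, ligands of the planar polarity branch that Cthrc1 takes part in, had 56.0 and 59.4 CPM and 21.8 and 17.5 CPM.

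Of 18 matricellular genes, 2 were past 4-fold higher, the member Postn and thrombospondin 1 (Thbs1, 68.1 and 16.7 CPM, 4.09-fold, 3.51 to 4.79), and 0 were lower. The median log2 ratio of the list was 0.43. Tgfbi, the closest relative of Postn, had 313.8 and 97.5 CPM (3.22-fold), and its partner Fn1 2871 and 990.1 CPM (2.90-fold). Of 20 secreted growth factor genes, 2 were past 4-fold higher, the member Ptn and Igf2, and the median was 0.11. Igf2, the fetal insulin-like growth factor, had 2469 UMIs (149.2 CPM) at 2 weeks and 1 UMI at 8 weeks. Of 24 genes of early matrix, 3 were past 4-fold higher, among them Fbn2 (67.6 and 3.37 CPM, 20.1-fold) and Mfap4 (229.9 and 16.5 CPM, 13.9-fold), and 1 lower. Of 14 imprinted growth genes, 7 were past 4-fold higher and 1 lower, and the median log2 ratio was 2.05, H19 standing at 2271 and 14.8 CPM and Dlk1 at 399.8 and 3.71 CPM. The imprinted list holds no member, but it was chosen with earlier results of these data known, so nothing is read from its count. The interstitial progenitor list (10 genes, 0 past 4-fold, median 0.67) and the committed list (10 genes, 4 lower, median -1.54) differed between the ages too, so the same rank along these markers stands for other marker levels at 8 weeks than at 2 weeks. Of 9 tissue dissociation response genes, Fos and Jun among them, 0 were past 4-fold. All were lower at 2 weeks, with log2 ratios from -1.10 to -0.06 and a median of -0.78. Whether handling differed between the libraries was not tested.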

How the data were processed

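The authors aligned the reads of both 10x 3′ libraries to GRCm38 with Cell Ranger, per the labels and the methods, and deposited raw UMI counts per gene and called cell, with no normalization. No doublet removal is named in the sources used here. The members and the gene lists were chosen with earlier results of these data known.

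UMIs of the stromal cells of each library were summed and scaled to CPM. Ratios have conditional exact binomial intervals, sums exact Poisson and shares exact Clopper-Pearson intervals, all at 95%. Genes were ranked with 1 UMI added to each sum. Detection used cells thinned to 1000 UMIs and correlation cells thinned to 3000 UMIs (Pearson, log1p). The depth of each library (28010800 and 29517430 UMIs) sets the precision. Cells outside the gate were classed by at least 3 of 6 markers. Named genes are the members, the members of the lists and, per member, the 5 most and 3 least similar genes; Lum, Mfap5, Pdgfra and the genes overlapping Gpc3 are named besides. Cells high in cell cycle genes were split off at 0.2% of UMIs because too many cells had none for equal groups. GENCODE M21 held 31024 of the 31125 gene identifiers. The scripts were tested on simulated data and used scipy 1.17.1 and numpy 2.4.6 under Python 3.11.15, and matplotlib 3.10.9 for the plots. Alternatives are given at the end.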

Additional observations from a re-analysis of the deposited data

Results flagged for a closer look

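The contrast between the stromal cells with most and fewest marker UMIs pointed opposite ways at the 2 ages for Cthrc1 by both marker lists and for Ptn by the committed list only. With 1 library per age, the difference between the ages was not tested. By interstitial progenitor share, the highest over the lowest group gave 8.02 for Cthrc1 in adolescent and 0.202 in adult cells. By committed preadipocyte share, Cthrc1 gave 0.139 in adolescent and 6.18 in adult cells (interval 3.08 to 14.1). These are the same cells grouped by another list and add no independent evidence. The groups are ranks within each age and stood for unlike marker shares. The median committed share was 0.422% in the highest adolescent group and 0.486% in the middle adult group. Without the cells that carry at least 3 markers of another non-immune class, a choice made after the data had been seen, the Cthrc1 contrast by progenitor share was 7.97 in adolescent and 0.117 in adult cells.

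By committed preadipocyte share, Ptn gave 2.93 in adolescent and 0.0377 in adult cells. The adult value rests on 41 UMIs in the lowest and 2 in the highest group. Without the cells that carry markers of another class, 6 and 2 UMIs were left, too few for a ratio. By progenitor share Ptn pointed the same way at both ages, with 0.270 in adolescent and 0.0487 in adult cells (0.00119 to 0.294). This adult value rests on 28 UMIs in the lowest and 1 in the highest group. Without the cells that carry markers of another class, 9 and 1 UMIs were left. The adult ratio was then 0.151 (0.00343 to 1.09), an interval that held 1.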

How the results depend on the processing

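The genes were chosen by values of these same libraries, their age difference among them, so what follows is a description only. The age ratio of all 6 genes stayed above 1 under all 10 alternatives. It ranged over 46.7 to 164 for Ptn, 1.70 to 1.92 for Mdk, 68.9 to 209 for Nrk, 25.2 to 30.4 for Cthrc1, 5.20 to 6.05 for Postn and 5.15 to 6.54 for Gpc3, and 47 of 60 values stayed within the counting interval of the reported ratio. The others were as follows. The Ptn ratio was 121 with a 2% stromal threshold, 164 in cells with a Pdgfra UMI, 86.0 without cells holding 2 immune markers of a class and, chosen after seeing the data, 155 without cells holding 3 markers of another non-immune class. The Postn ratio was 6.05 in cells with a Pdgfra UMI, 5.20 with equal weight per cell, 5.79 after scaling to the median ratio of genes (which shifts all log2 ratios by 0.05), 5.88 without the gate genes in the total and 5.76 in cells of at least 4000 UMIs. The Gpc3 ratio was 6.54, 5.21 and 5.15 in cells with Pdgfra, without immune markers and with equal weight, and the Mdk ratio 1.92 with equal weight.

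Detection rose with the depth allowed. In adolescent cells, Ptn, Mdk, Nrk, Cthrc1, Postn and Gpc3 were found in 29.1%, 18.4%, 14.4%, 39.5%, 93.9% and 73.5% at 2000 UMIs and in 45.6%, 33.5%, 27.2%, 58.0%, 98.9% and 90.6% at 5000 UMIs. In adult cells, Mdk, Cthrc1, Postn and Gpc3 were found in 10.3%, 2.04%, 43.1% and 21.5% at 2000 UMIs and in 22.7%, 5.70%, 56.0% and 36.0% at 5000 UMIs, where Nrk was found in 0.357%. Genes past the fold numbered 102 higher and 162 lower with a minimum of 5 CPM, 24 and 32 with 100 CPM, and 182 and 328 at 2-fold. Co-detection left its interval in 1 of 30 alternative values, Ptn with Mdk, at 0.714 without cells holding immune markers. At 3000 UMIs the intervals of Mdk with Gpc3 (0.898) and Nrk with Gpc3 (1.09) came to hold 1 and those of Cthrc1 with Gpc3 (1.083) and Nrk with Cthrc1 (1.28) no longer did, while Mdk with Cthrc1 (0.704) came to hold 1 without cells holding immune markers. Of 30 alternative correlation values 9 moved, those of Mdk and Cthrc1 with Gpc3 to -0.30 and 0.30 without thinning. The medians of the lists and the levels in B and T cells changed no statement above.

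No paired analysis was possible because each age has 1 library and the labels give no replicate numbers. Depth limits what is seen of Nrk, which was found in 0 of 1418 adult cells at 1000 UMIs.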

Other observations

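In 15 adolescent stromal cells with more than 0.2% of UMIs from 14 cell cycle genes, Mdk stood at 353.9 CPM (interval 274.2 to 449.4) against 115.6 CPM in the other 1632 stromal cells, and Ptn at 348.6 against 244.4 CPM. Cthrc1 stood at 237.7 against 409.5 CPM, while Postn had 2377 and 2470 CPM. These cells were deeper, with a median of 14708 UMIs, and their number limits the comparison to a description.

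Macrophages, mast cells and neutrophils of the adolescent library had Postn at 105, 83.2 and 77.9 CPM, close to the 98.2 CPM of B and T cells. Gpc3 had 49.9 CPM in 99 adolescent mast cells (27 UMIs, 32.9 to 72.6), against 25.5 CPM in adolescent B and T cells. Mdk had 20.3 CPM in these mast cells (11 UMIs in 4 cells, 10.1 to 36.4), against 5.46 CPM. The mast cell intervals of the other genes held the level of B and T cells. No doublets were removed, and where these UMIs came from was not tested.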
